A study of Mus musculus with 8 samples.

Results

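Dense-core vesicle and granin genes are the 10 genes Ptprn, Ptprn2, Scg2, Scg3, Scg5, Chga, Chgb, Vgf, Pcsk1 and Pcsk2, taken by gene symbol from the 26824 genes of the series. They comprise 6 granins and related secretory proteins, the 2 IA-2 proteins of the vesicle membrane and 2 prohormone convertases. Ptprn was chosen because it differed between the groups in these same libraries, so its values are a description with no test. The other 9 genes entered by gene family, and all 10 passed the filter on low counts.

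RNA sequencing of dissected mouse retina compared wild-type mice (WT, 3 libraries, numbered 1 to 3) with mice labelled as knockouts of Kv8.2 (KO, 5 libraries, numbered 2 to 6). Kv8.2 is a photoreceptor potassium channel subunit encoded by Kcnv2. Every mouse was 1 month old and untreated, and each library pooled the 2 retinas of a mouse. Strain, sex and the structure of the knockout allele were not given in the sources used here. The series text states that 2 KO samples were left out of the authors' own test without naming them, so all 8 libraries were used.

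Dense-core vesicles store peptides and release them when calcium enters the cell. Granins are acidic proteins that aggregate in the trans-Golgi network, help to form the vesicles and are themselves cut into peptides. Prohormone convertases cut the cargo at pairs of basic residues inside the maturing vesicle, and IA-2 proteins span the vesicle membrane. In the retina, peptides of this pathway are made mainly by amacrine cells, and ganglion cells also carry dense-core vesicles.

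Library totals were 17759146 to 25188870 estimated counts. KO 4, KO 5 and KO 6 stood apart from the other libraries, with 3.03% to 3.7% of counts from mitochondrial genes against 5.23% to 7.92% in the others. In KO 3, the 12 lens markers took 4.1% of the counts, against at most 0.141% elsewhere. WT 3 held 9 counts of Xist and 2132 of the Y-linked gene Ddx3y, whereas the other libraries held 30144 to 59443 and 1 to 3. Sex is therefore not balanced over the groups. All 10 genes are autosomal, but the part of sex in their values was not tested. Kcnv2 transcript was present in every library, at 519 to 551 CPM in WT (counts scaled to a library total of 1e+06) and, in the libraries labelled KO, at 585 in KO 2, 447 in KO 3 and 398 to 409 in KO 4 to KO 6. Its log2 fold change was -0.04 in KO 2 and KO 3 against WT and -0.38 in KO 4 to KO 6 against WT (edgeR adjusted p = 0.000116), and the labels do not say whether the allele should remove it. The retinal label fitted the marker genes: no rod marker was at 0 in any library, and the 6 summed to 31641 to 47496 CPM.

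Promoter sequences of the genes are shown because many genes of this pathway are known to carry a cyclic AMP response element (CRE) near their start. The motifs searched were the full element TGACGTCA and its core TGACG, on both strands; each full element also holds 2 overlapping core matches. RefSeq promoters (build GRCm38.p6, 250 bases before to 50 after the start) were matched for 9 of the 10 genes, all but Vgf. The windows below are the 150 bases before the RefSeq start, 5′ to 3′ on the strand of the gene, with motif matches in capitals. They show the 3 promoters with a full motif, the first of the 2 listed starts of Ptprn, and Ptprn2.
Chgb (chr2:132781492-132781641, plus strand): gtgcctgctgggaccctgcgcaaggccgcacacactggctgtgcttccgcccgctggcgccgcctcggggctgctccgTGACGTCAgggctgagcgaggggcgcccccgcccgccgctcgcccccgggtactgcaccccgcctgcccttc
Scg2 (chr1:79440027-79440176, minus strand): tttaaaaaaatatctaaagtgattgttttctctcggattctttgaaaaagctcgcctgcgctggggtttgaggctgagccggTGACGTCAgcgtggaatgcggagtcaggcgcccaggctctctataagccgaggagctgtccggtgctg
Pcsk1 (chr13:75089707-75089856, plus strand): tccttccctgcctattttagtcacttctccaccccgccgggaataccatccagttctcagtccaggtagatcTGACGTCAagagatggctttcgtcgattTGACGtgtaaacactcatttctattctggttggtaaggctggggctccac
Ptprn (chr1:75264209-75264358, minus strand): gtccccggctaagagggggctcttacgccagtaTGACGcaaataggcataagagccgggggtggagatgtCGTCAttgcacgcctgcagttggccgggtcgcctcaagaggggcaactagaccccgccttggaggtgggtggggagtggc
Ptprn2 (chr12:116485570-116485719, plus strand): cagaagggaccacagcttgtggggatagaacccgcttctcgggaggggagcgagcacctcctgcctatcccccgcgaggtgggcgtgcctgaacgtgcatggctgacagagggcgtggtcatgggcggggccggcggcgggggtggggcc

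The full motif was found in the promoters of Chgb, Scg2 and Pcsk1, beginning at bases -72, -68 and -78 from the start. The core occurred in 8 of the 9 genes, the exception being Ptprn2. Among all 32851 promoters of the reference table, 1.79% held the full motif and 20.8% the core; among the 18722 promoters of genes in the count table the shares were 2.49% and 26.6%. The 3 genes with a full motif had log2 fold changes (KO over WT) of 0.30 for Chgb, -0.04 for Scg2 and -0.24 for Pcsk1, none of them called by edgeR over all 8 libraries. Ptprn, with 2 separate core matches at its first start and none in the second window, had the largest difference of the 10 genes, on which it was chosen. Scg5, with 3 core matches in its 300-base promoter, was called lower, and Ptprn2, with none, was called higher. The matches are descriptions of sequence and not evidence of binding.

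The mean level of Ptprn was 2.43-fold higher in the KO libraries than in WT, whereas its paralog Ptprn2 rose modestly and the granin group had no common direction. Of the 9 genes chosen by family, Ptprn2 was called higher (log2 fold change 0.40, SE 0.09) and Scg5, the chaperone of a convertase, was called lower (-0.43, SE 0.10). Calls here mean an edgeR adjusted p under 0.05, from the quasi-likelihood test over all 20167 tested genes, of which 7.58% were called, 4.74% higher and 2.84% lower. In Ptprn2 and Scg5 alone among the 9 the KO and WT libraries did not overlap, as in 20.9% of all tested genes (KO above in 10.8% and below in 10.1%). By an unadjusted p under 0.05 edgeR passed 27.3% of all tested genes, and by adjusted p DESeq2 called 15.5% and limma voom 40.9%. Of the 9 genes, these rules passed 4, 3 and 5. The median log2 fold change of the 9 genes was 0.15, beside 0.00 for all tested genes. In this bulk tissue, fewer cells of a type and less RNA per cell cannot be told apart.

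**Figure D1:**
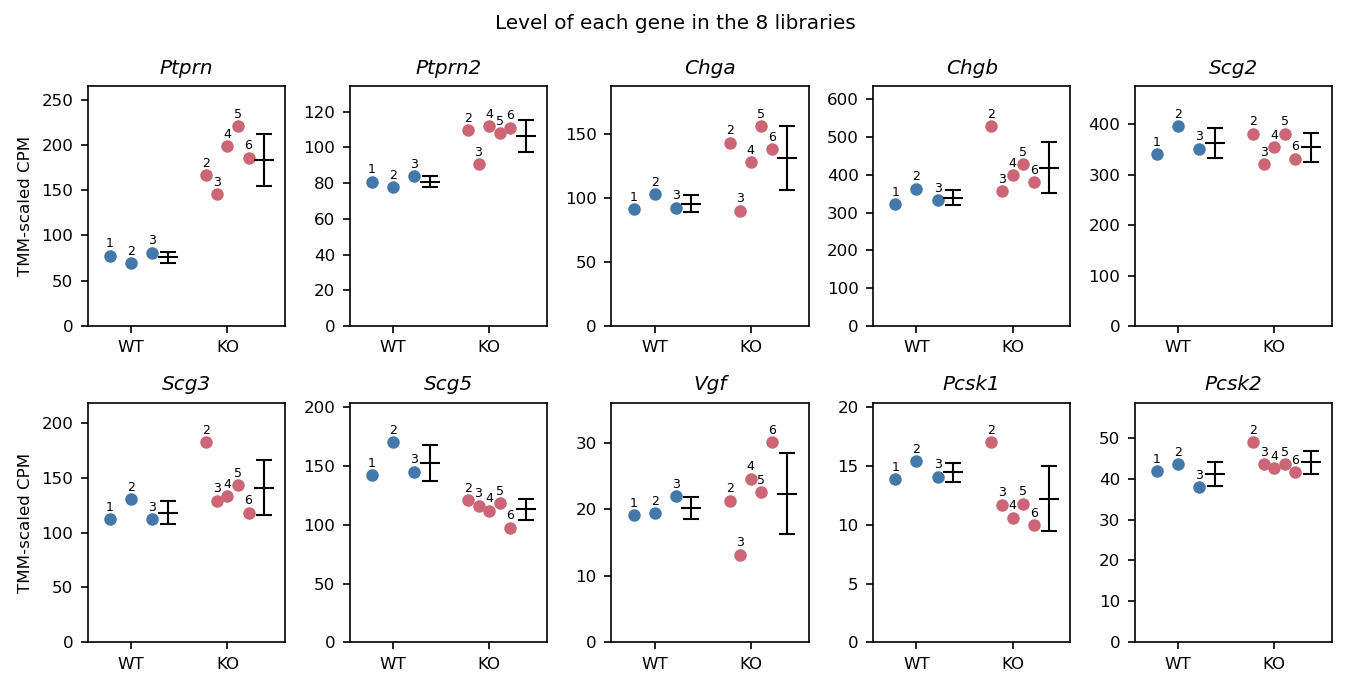
TMM-scaled CPM (y axis, linear, from 0) of each of the 10 genes in the 3 WT libraries (blue) and 5 KO libraries (red), each point marked with its library number; the black bar beside each group is its mean ± SD. All 5 KO points lie above the WT points for Ptprn and Ptprn2 and below them for Scg5, while the groups overlap for the other 7 genes.

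Ptprn encodes IA-2, a receptor-type protein tyrosine phosphatase of the vesicle membrane that lacks phosphatase activity and is an autoantigen of type 1 diabetes. In GRCm38 the gene lies at chr1:75247027-75264502 on the minus strand. Its CPM was 77.6, 69 and 80.9 in WT 1, WT 2 and WT 3, and 167, 146, 199, 221 and 186 in KO 2 to KO 6. All KO libraries exceeded all WT libraries, and the lowest KO value, in KO 3, was still well above the highest WT value. The means were 75.8 ± 6.16 (SD, n = 3) and 184 ± 29 (SD, n = 5), a 2.43-fold difference (log2 fold change 1.28, SE 0.14). The log2 fold change was 1.05 for KO 2 and KO 3 against WT and 1.43 for KO 4 to KO 6 against WT; these comparisons share the WT libraries.

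Of the 31-base words in Ptprn transcripts, 3.05% also occur in Gm28294, a gene annotated on the opposite strand whose exons overlap it by 189 bases. Gm28294 had 26, 11 and 12 counts in the WT libraries and 70, 105, 118, 94 and 105 in KO 2 to KO 6. It was singled out after its values were seen. Its KO counts too were all above its WT counts, and since the strand setting is not given in the sources used here, reads from the overlapping bases cannot be told apart between the 2 genes. The Ptprn counts ranged from 1416 to 4333, and how many of them come from the overlapping bases was not tested.

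Ptprn2 encodes IA-2beta, also called phogrin, the other member of the family, and lies on the plus strand at chr12:116485720-117276849. Its CPM was 80.8, 77.7 and 83.9 in WT 1 to WT 3, and 109.8, 90.7, 112, 108 and 111 in KO 2 to KO 6. The groups did not overlap, and KO 3 lay nearest to WT, apart from the other KO libraries. The mean went from 80.8 ± 3.08 (SD, n = 3) to 106 ± 8.9 (SD, n = 5), with an edgeR adjusted p of 0.0315. Ptprn2 had a log2 fold change of 0.31 in KO 2 and KO 3 (edgeR adjusted p = 0.167) and 0.46 in KO 4 to KO 6 (6.01e-05). Its call was lost on leaving out any of WT 1, WT 2, WT 3, KO 4, KO 5 and KO 6, with log2 fold changes between 0.38 and 0.46 over all 8 omissions and edgeR adjusted p of up to 0.149. Scaling by library size alone also ended it (0.36, edgeR adjusted p = 0.0546).

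The balance between the 2 paralogs differed between the groups. The ratio of Ptprn to Ptprn2 CPM, not corrected for length, was 0.961, 0.887 and 0.965 in WT 1 to WT 3, and 1.52, 1.61, 1.78, 2.05 and 1.67 in KO 2 to KO 6. The ratio includes the difference on which Ptprn was chosen, so it was not tested. Their summed CPM was 147 to 165 in WT and 237 to 329 in KO.

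Scg5 encodes 7B2, a secretory chaperone that keeps the precursor of PC2, the product of Pcsk2, soluble and able to mature. The gene lies at chr2:113776362-113829121 on the minus strand. Scg5 CPM was 142, 169.8 and 145 in WT 1 to WT 3, and 121, 116, 112, 118 and 97.5 in KO 2 to KO 6. Each KO library was below each WT library, with KO 6 lowest and WT 2 highest. The mean fell from 152 ± 15.2 (SD, n = 3) to 113 ± 9.18 (SD, n = 5), with an edgeR adjusted p of 0.0318. For Scg5 the log2 fold change was -0.37 in KO 2 and KO 3 (edgeR adjusted p = 0.152) and -0.47 in KO 4 to KO 6 (0.000762). Leaving out any of WT 1, WT 2, WT 3, KO 4, KO 5 and KO 6 ended the call, with values of -0.48 to -0.34 over all 8 omissions and edgeR adjusted p of up to 0.164.

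Pcsk2 itself had CPM values of 41.8, 43.5 and 37.9 in WT and 48.8, 43.5, 42.5, 43.5 and 41.5 in KO 2 to KO 6. These overlap, with KO 2 highest, and the log2 fold change was 0.10 (SE 0.09, edgeR adjusted p = 0.488), or 0.25 with offsets for the GC content of the genes (edgeR adjusted p = 0.0618). The ratio of Scg5 to Pcsk2 CPM, not corrected for length, was 3.4, 3.9 and 3.83 in WT and 2.48, 2.66, 2.64, 2.72 and 2.35 in KO, with no overlap between the groups. That ratio was chosen after the values were seen and was not tested. Pcsk2 shares 6.1% of its 31-base words with other genes and overlaps the antisense gene Pcsk2os1, which had 12 to 28 counts per library.

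Chga encodes chromogranin A, the prototype granin and the precursor of peptides such as vasostatin and catestatin. Its CPM was 91.1, 103 and 92.2 in WT 1 to WT 3, and 143, 89.9, 128, 156 and 138 in KO 2 to KO 6. KO 3 was below every WT library, and the other 4 KO libraries were above all of them. Chga had a log2 fold change of 0.46 (SE 0.16), which did not pass the threshold (edgeR adjusted p = 0.0901) and was 0.23 with offsets for the GC content of the genes. On the same 8 libraries, DESeq2 called it at 0.46 (adjusted p = 0.028) and limma voom at 0.53 (adjusted p = 0.000874). In KO 4 to KO 6 it was called higher (0.57, edgeR adjusted p = 9.38e-05), and in KO 2 and KO 3 it was not (0.29, edgeR adjusted p = 0.39). Without KO 3 the value was 0.58 with an edgeR adjusted p of 0.00302.

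Chgb encodes chromogranin B, a granin that promotes vesicle formation. CPM values were 323, 363 and 333 in WT 1 to WT 3, and 529, 356, 399, 428 and 379.6 in KO 2 to KO 6. KO 3 lay within the WT range and KO 2 far above it. The log2 fold change was 0.30 (SE 0.14, edgeR adjusted p = 0.181), and 0.16 with GC offsets. Scg3, whose product secretogranin III anchors chromogranin A to the vesicle membrane, had the most similar profile among the 10 genes. It had 112, 130.1 and 112 CPM in the WT libraries and 182, 129, 133, 143 and 118 in KO 2 to KO 6. Here too KO 2 was the highest library and the groups overlapped (log2 fold change 0.25, SE 0.14, edgeR adjusted p = 0.254), and without KO 2 the value was 0.15. Likeness was measured as the root mean square difference of log2 CPM, each gene centred on its mean over the 8 libraries. It was 0.064 for Chgb and Scg3 and 0.106 for the next pair, Scg2 and Pcsk2.

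Scg2 encodes secretogranin II, the precursor of secretoneurin. It had 341, 397 and 352 CPM in the WT libraries and 382, 321, 355, 382 and 332 in KO 2 to KO 6. The ranges lay over each other, with a log2 fold change of -0.04 (SE 0.11, edgeR adjusted p = 0.855) whose sign depended on the libraries and offsets used. Vgf, a neurotrophin-responsive gene whose product yields several neuropeptides, had 19.1, 19.4 and 22 CPM in WT and 21.3, 13.2, 24.6, 22.6 and 30.02 in KO. KO 3 was the lowest and KO 6 the highest of all libraries for Vgf. Its log2 fold change of 0.15 (SE 0.21, edgeR adjusted p = 0.69) became -0.22 in KO 2 and KO 3 and was 0.36, a called rise, in KO 4 to KO 6 (edgeR adjusted p = 0.0155). With GC offsets it was -0.19.

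Pcsk1 encodes the convertase PC1/3, which makes the first cuts in many prohormones. Its CPM was 13.9, 15.4 and 14.1 in WT 1 to WT 3, and 17, 11.7, 10.6, 11.8 and 9.98 in KO 2 to KO 6. KO 2 was above all WT libraries and the other 4 KO libraries were below them. Over all libraries the log2 fold change was -0.24 (SE 0.17, edgeR adjusted p = 0.382), and without KO 2 it was -0.39 and called (edgeR adjusted p = 0.0472). With GC offsets the direction turned, at 0.02 (edgeR adjusted p = 0.955). It was -0.01 in KO 2 and KO 3 and -0.41, a called fall, in KO 4 to KO 6 (edgeR adjusted p = 0.00925).

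**Figure D2:**
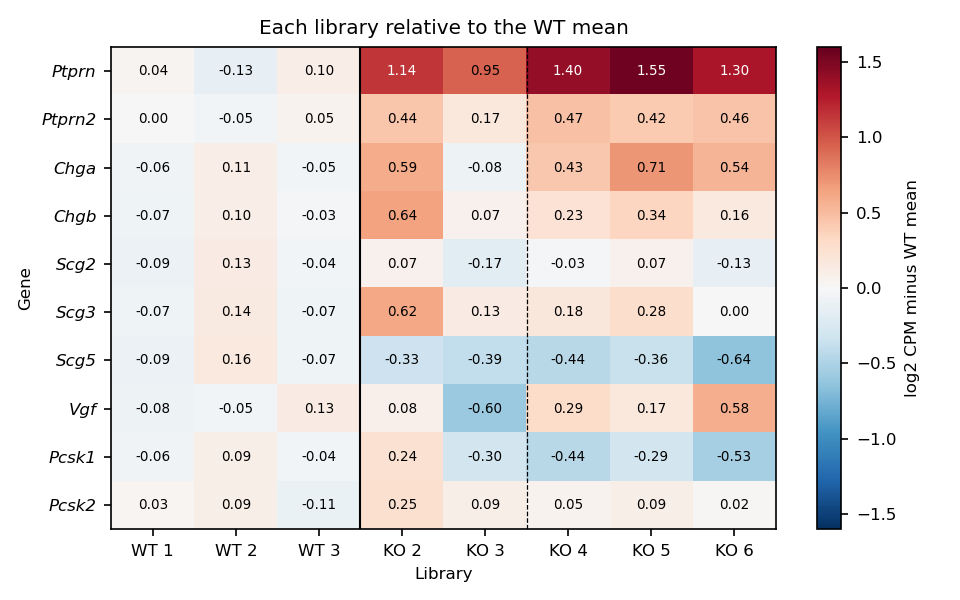
Log2 CPM of each gene (rows) in each library (columns) minus its mean log2 CPM over the WT libraries, printed in each cell. Red is above and blue below that mean, and the lines set off the WT libraries and KO 4 to KO 6. Ptprn is red in every KO library (0.95 to 1.55), Scg5 is blue in every KO library (-0.64 to -0.33), and KO 3 is closest to WT for Ptprn2 (0.17).

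The call counts differed between the 2 sets of KO libraries. With KO 2 and KO 3 alone, 0 of the 9 genes were called by edgeR, where 0.891% of 20201 tested genes were called (0.624% higher and 0.267% lower); 3 of the 9 had an unadjusted p under 0.05, beside 19.0% of all tested genes. With KO 4 to KO 6, the granins Chga, Chgb and Vgf and the paralog Ptprn2 were called higher and Scg5 and Pcsk1 lower, where 42.8% of 19678 tested genes were called (22.3% higher and 20.5% lower). Both sets share the WT libraries, and the difference between the sets was not tested. KO 4 to KO 6 had fewer mitochondrial counts, and with no batch given in the labels a batch and a difference between mice cannot be told apart.

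**Figure D3:**
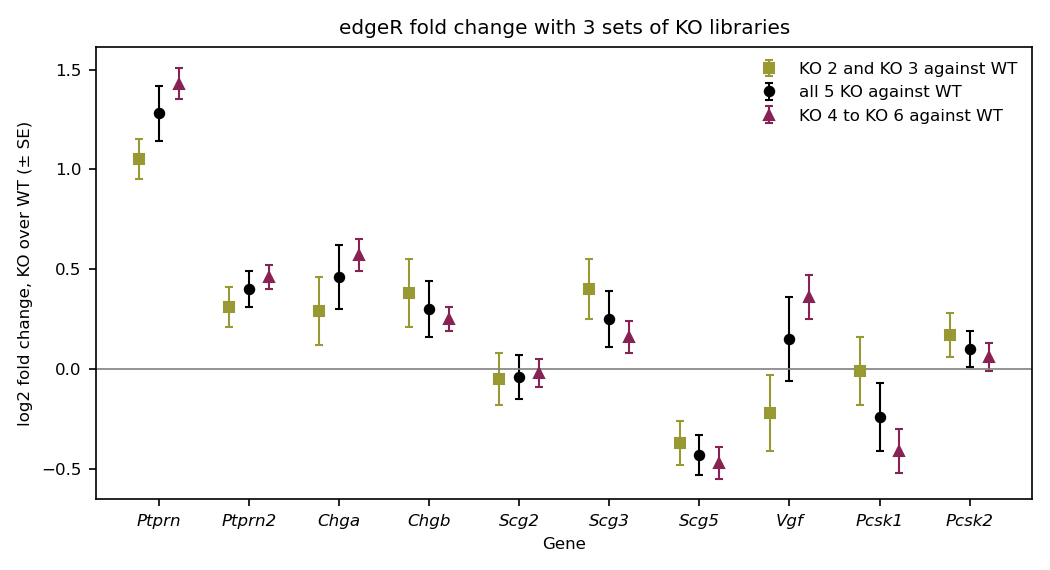
Log2 fold change (KO over WT, y axis) ± SE from edgeR for each gene, with KO 2 and KO 3 (squares), all 5 KO libraries (circles) or KO 4 to KO 6 (triangles) set against the same 3 WT libraries. Ptprn lies between 1.05 and 1.43, Ptprn2 between 0.31 and 0.46 and Scg5 between -0.47 and -0.37, while Vgf changes sign.

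Levels were compared between genes as CPM per kilobase (kb) of exon, with exon lengths from GENCODE. In WT, Scg2 was highest at 145 ± 11.9 CPM per kb (SD, n = 3), followed by Chgb at 124 ± 7.53, Scg5 at 97.1 ± 9.66, Scg3 at 43.2 ± 3.76 and Chga at 34.6 ± 2.31. The IA-2 proteins came next, Ptprn at 17.8 ± 1.45 and Ptprn2 at 9.39 ± 0.358 CPM per kb. Vgf (6.78 ± 0.546), Pcsk2 (5.19 ± 0.366) and Pcsk1 (2.58 ± 0.15 CPM per kb) were lowest, and every pair of neighbours in this order was further apart than the sum of their SDs. In the KO libraries Chgb stood at 153 ± 24.6 and Scg2 at 141 ± 11.1 CPM per kb (SD, n = 5), within their spread of each other. Scg5 followed at 72 ± 5.85. Scg3 (51.5 ± 8.94), Chga (47.5 ± 9.07) and Ptprn (43.3 ± 6.83 CPM per kb) were also within their spread of each other, so that Ptprn reached the level of these 2 granins. Ptprn2 (12.4 ± 1.04) was below them, Vgf (7.52 ± 2.05) and Pcsk2 (5.56 ± 0.36 CPM per kb) did not differ beyond their spread, and Pcsk1 was lowest at 2.18 ± 0.498.

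The summed CPM of the 6 granins overlapped between the groups, at 1029 to 1182 in WT and 1025 to 1378 in KO, and that of the convertases was 52 to 59 in WT and 51.5 to 65.9 in KO. The marker sums of amacrine and ganglion cells also overlapped. The 9 amacrine markers summed to 790.2 to 824 CPM in WT and 794 to 1009 in KO, and the 10 ganglion cell markers to 1097 to 1203 and 1069 to 1492. In both lists KO 2 was the highest library and none of the markers was at 0 in any library. edgeR called 0 of the 9 amacrine markers (2 with an unadjusted p under 0.05, DESeq2 1, limma voom 2) and 0 of the 10 ganglion cell markers (3 with an unadjusted p under 0.05, DESeq2 0, limma voom 7), beside 27.3%, 15.5% and 40.9% of all genes by these rules. Some other marker sums did not overlap between the groups; the genes called in those lists and among the Muller glia markers are named here after their values were seen. Among all tested genes edgeR called 4.74% higher and 2.84% lower. The 5 cone markers summed to 779.5 to 984 CPM in WT and 518 to 692 in KO, with Pde6h (log2 fold change -0.74, SE 0.10) and Gnat2 (-0.47, SE 0.11) called lower. Arr3 (-0.72) and Opn1sw (-0.58) were not called. Opn1mw did not fall (0.05), at 93.3 to 117 CPM in WT and 96.7 to 122 in KO. The 4 horizontal cell markers summed to 114 to 118 CPM in WT and 77.3 to 113 in KO, with Calb1, which holds most of that sum, called lower (-0.49, SE 0.13) and the other 3 at 0.07 (Lhx1), 0.14 (Onecut1) and 0.02 (Onecut2), none called. The 5 microglial markers summed to 25.9 to 28.1 CPM in WT and 30.8 to 44 in KO, with Csf1r called higher (0.69, SE 0.17). Cx3cr1 (0.43), C1qa (0.30) and C1qb (0.61) were not called. P2ry12 went the other way, also not called, at -0.07 over all libraries and -0.38 in KO 4 to KO 6. Sums of the 6 Muller glia markers overlapped, at 3035 to 3229 and 3066 to 4659.8 CPM, yet Gfap, a marker of reactive glia, rose (1.67, SE 0.15), as did Sox9 (0.62, SE 0.13). The part of these cell types in the values of the 10 genes and of the neuropeptide precursors was not tested.

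The rest of the pathway was followed in 39 genes for peptide processing, vesicle biogenesis and regulated exocytosis, of which 38 passed the filter on low counts (all but Sytl4). Of these 38, edgeR called 2 higher and 0 lower, beside 4.74% and 2.84% of all tested genes. An unadjusted p under 0.05 was reached by 13 (27.3% of all genes), while DESeq2 called 8 (15.5% of all genes) and limma voom 23 (40.9%). The median log2 fold change of the 38 was 0.08. Kif1a encodes a kinesin motor that moves dense-core vesicles along axons. It had 534, 494 and 542 CPM in the WT libraries and 761, 586, 758, 773 and 771 in KO 2 to KO 6, with no overlap (log2 fold change 0.48, SE 0.12, edgeR adjusted p = 0.0401). Arfip2, an adaptor at the trans-Golgi network, had 78.8, 78.5 and 80.4 CPM in WT and 101, 90.6, 93.9, 104 and 98.4 in KO, again with no overlap (0.30, SE 0.08, edgeR adjusted p = 0.0414). The groups did not overlap in 20.9% of all tested genes (KO above in 10.8% and below in 10.1%). Snap25 of the 38 genes also did not overlap, with KO below WT, and was not called (-0.28, edgeR adjusted p = 0.112). Offsets for GC content ended both calls, at 0.28 and 0.15, as did scaling by library size alone, testing with no filter, and leaving out any WT library or any of KO 4, KO 5 and KO 6, where the values stayed at 0.45 to 0.50 for Kif1a and 0.27 to 0.32 for Arfip2.

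None of the 9 processing genes was called by edgeR (4 with an unadjusted p under 0.05, DESeq2 3, limma voom 6, beside 27.3%, 15.5% and 40.9% of all genes), and their median log2 fold change was 0.20. Cpe, the carboxypeptidase that trims the basic residues left by the convertases, had 951, 1049 and 1018 CPM in WT and 1520.3, 1011, 1419, 1501 and 1443 in KO 2 to KO 6. KO 3 lay among the WT libraries and the other KO libraries above them (0.45, SE 0.14, edgeR adjusted p = 0.0717). The 17 tested exocytosis genes had 0 calls by edgeR (5 with an unadjusted p under 0.05, DESeq2 2, limma voom 8, beside the same shares) and a median of 0.05. With KO 2 and KO 3 alone, 0 of the 38 genes were called by edgeR, beside 0.891% of all genes, and 4 had an unadjusted p under 0.05, beside 19.0% of all genes. With KO 4 to KO 6, 12 were called higher and 11 lower, beside 22.3% and 20.5% of all genes.

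Among neuropeptide precursors, the cargo of the vesicles, Tac1 and Vip fell. Of 20 listed precursors, 17 were in the table and 15 were tested; 2 were called lower and 0 higher by edgeR, beside 2.84% and 4.74% of all genes. An unadjusted p under 0.05 was reached by 4 of the 15 (27.3% of all genes), DESeq2 called 3 (15.5%) and limma voom 4 (40.9%). A positive log2 fold change was seen in 2 of the 15, beside 10100 of all 20167 tested genes, and the median was -0.23, beside 0.00. The summed CPM of the precursors in the table was 195 to 242 in WT and 149 to 175 in KO. Cartpt and Penk had the highest WT means in this sum (65.8 and 58.4 CPM). Neither was called by edgeR over all 8 libraries.

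Tac1, the precursor of substance P and neurokinin A, had 19.7, 21.6 and 20.6 CPM in the WT libraries and 10.1, 14.1, 10.8, 10.2 and 10.8 in KO 2 to KO 6. All KO libraries were lower, and KO 3 was the nearest to WT. Tac1 fell by 0.88 on the log2 scale (SE 0.13, edgeR adjusted p = 0.00644), and without WT 2 the adjusted p was 0.0511. Vip, which encodes vasoactive intestinal peptide, had 11.2, 12.4 and 10.5 CPM in WT and 7.64, 7.75, 6.4, 5.88 and 5.69 in KO, also with no overlap. It fell by 0.77 (SE 0.15, edgeR adjusted p = 0.0182), and by 0.46 with GC offsets (edgeR adjusted p = 0.0311). The Vip call was lost without any of WT 1, WT 2, WT 3, KO 4 and KO 5, at edgeR adjusted p of up to 0.111.

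Penk, the enkephalin precursor, was chosen for mention after its values were seen. It had 65.9, 57.9 and 51.5 CPM in WT and 49.96, 44.9, 16.8, 31.6 and 11.9 in KO 2 to KO 6. KO 2 and KO 3 lay just below the WT range and KO 4 to KO 6 far below it, and the log2 fold change over all libraries was -0.91 with a wide error (SE 0.38, edgeR adjusted p = 0.155). With KO 2 and KO 3 alone, 0 of 14 tested precursors were called by edgeR (0.891% of all genes), and 7 had an unadjusted p under 0.05 (19.0% of all genes). With KO 4 to KO 6, Vip, Penk and Tac1 were called lower and Pomc, the precursor of melanocortins and endorphin, higher, in a comparison that called 42.8% of all genes.

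**Figure D4:**
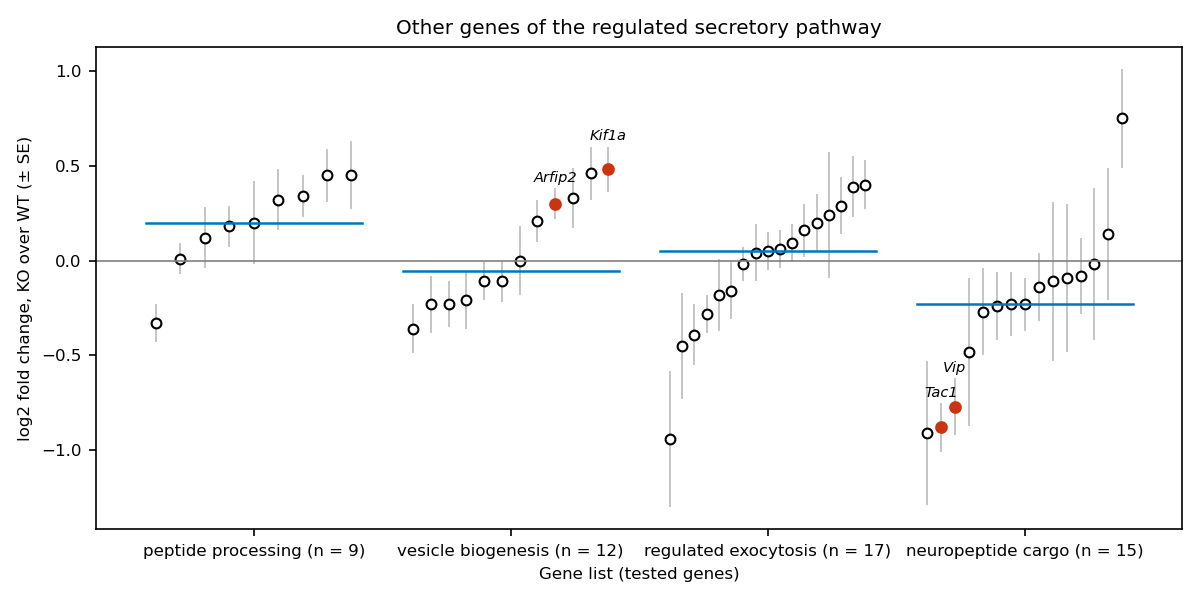
Log2 fold change (all 5 KO over 3 WT libraries, y axis) ± SE from edgeR of each tested gene in 4 lists (x axis), sorted within each list; filled red points were called at an adjusted p under 0.05, open points were not, and the blue line is the median of the list. Called genes are Kif1a and Arfip2 above 0 and Tac1 and Vip below 0.

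The 5 tested genes whose centred profile over the 8 libraries was closest to that of Ptprn were Inppl1 (root mean square difference 0.097), Arhgap27 (0.101), Syne3 (0.119), Klhl29 (0.131) and Stat3 (0.134). Inppl1 went from a mean of 25.6 CPM in WT to 60.9 in KO, and Stat3 from 57.9 to 136. These rises follow from choosing the genes for their likeness to Ptprn and are descriptions only. Among the other 9 genes the closest to Ptprn was Chga at 0.435, ahead of Ptprn2 at 0.440. Closest to Ptprn2 were Mgat5 (0.024), Arhgef11, Septin11 and Sash1 (each 0.035) and Mprip (0.040).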

How the data were processed

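The authors deposited 1 table of estimated counts per gene (whole numbers) for 26824 genes and 8 libraries. Salmon 1.10.2, Trim Galore, DESeq2 and GRCm38 are named in the submitters' processing notes; annotation release and strand setting are not given in the sources used here. Every gene has at least 16 counts in total.

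Counts were scaled by TMM, filtered with filterByExpr (20167 genes kept) and tested with edgeR 4.0.16 (R 4.3.3) by the quasi-likelihood test, 3 WT against 5 KO libraries with no covariate, with Benjamini-Hochberg adjustment over all tested genes. Standard errors were derived from each log2 fold change and its F statistic. Alternatives used DESeq2 1.42.0, limma 3.58.1 (voom with quality weights), other scalings and filters, fewer libraries, GC offsets and a replicate block. The edgeR, DESeq2 and voom steps were tested on simulated counts.

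GENCODE M21 held 22121 of the genes by identifier and gave positions, exon lengths, GC content and shared 31-base words; promoters are from RefSeq. Proteins were not analysed here. No 2 libraries of a group agreed within sampling noise. Labels do not name litters or batches, so p-values measure the spread between these mice. Named genes are the 10 members, called genes of the pathway lists, and the 5 genes closest in profile to Ptprn and to the called member with the smallest p otherwise. The members and lists were chosen with earlier results of these data known.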

Additional observations from a re-analysis of the deposited data

Results flagged for a closer look

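Among the 10 genes, 3 had a KO library far from the other 4, by the gap to the nearest library divided by the range of the 5 KO libraries (limit 0.71). Chance alone passes that limit in about 1 of 20 such groups. The share of all genes past the limit was not computed, so the count does not set these genes apart. For Ptprn2 it was KO 3, low at 90.7 CPM, with a gap share of 0.798. For Pcsk1 it was KO 2, high at 17 CPM, with a gap share of 0.747. For Pcsk2 it was also KO 2, high at 48.8 CPM, with a gap share of 0.726. KO 3 is the library with 4.1% of its counts from lens markers, and KO 2 the one with the highest ganglion cell marker sum, 1492 CPM; the part of either in these values was not tested.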

How the results depend on the processing

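The log2 fold change of Ptprn, whose direction the choice of the gene fixes, lay between 1.03 (GC offsets) and 1.43 over 29 alternatives. Those of Ptprn2 (0.27 to 0.46) and Scg5 (-0.48 to -0.34) kept their direction in all 29. So did those of Chga, Chgb, Scg3 and Pcsk2, which edgeR did not call over all 8 libraries. Counts of calls moved more. Over all genes 1529 were called, 956 higher and 573 lower; with library size alone the split was 566 higher and 787 lower. DESeq2 called 3130, limma voom 8248, and KO 2 and KO 3 against WT gave 180. Leaving out 1 library or 2 KO libraries gave 118 to 8416. Of the 9 members apart from Ptprn, 2 were called, 1 with library size alone (Ptprn2 at edgeR adjusted p = 0.0546), 3 with DESeq2, 5 with limma voom, 0 with KO 2 and KO 3, and 0 to 6 on leaving out libraries. Of the pathway genes 2 were called, 8 with DESeq2, 23 with limma voom, 0 by edgeR with no filter on low counts, 0 with GC offsets, 0 with KO 2 and KO 3, and 0 to 23 on leaving out libraries. Of the precursors 2 were called, 4 with limma voom, 0 with KO 2 and KO 3, and 0 to 4 on leaving out libraries. The cause of these shifts was not tested.

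Replicate numbers 2 and 3 occur in both groups, but nothing says that they pair animals, and deviations correlated at -0.00 and -0.24. WT 2, WT 3, KO 2 and KO 3, fitted with a replicate block, gave 52 called genes, and 14 with no pairing; each called 0 of the 9 members by edgeR (1 and 2 with an unadjusted p under 0.05), 0 pathway genes and 0 precursors. Vgf changed sign, to -0.29 with the block, -0.26 with no pairing, -0.22 with KO 2 and KO 3 and -0.19 with GC offsets, and ranged from -0.08 to 0.36 on leaving out libraries. Scg2 ranged from -0.10 to 0.04 on leaving out libraries and was 0.05 with GC offsets. Pcsk1 was 0.02 with GC offsets. GC offsets, on the 18028 tested genes with a known GC content, called 1289 genes against 1510 without offsets, a base added after seeing the data, and lowered Chga from 0.46 to 0.23 and Chgb from 0.30 to 0.16; they raised Pcsk2 from 0.10 to 0.25 (edgeR adjusted p = 0.0618).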

Other observations

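KO 2 held the highest level of all 8 libraries for Chgb (529 CPM), Scg3 (182), Pcsk1 (17) and Pcsk2 (48.8). The same library had the highest summed markers of rods (47496 CPM, against 31641 to 43538 in the other 7), bipolar cells (1210 against 975 to 1189), amacrine cells (1009 against 790.2 to 885), ganglion cells (1492 against 1069 to 1203), Muller glia (4659.8 against 3035 to 3499) and microglia (44 against 25.9 to 41.8), but not of cones, horizontal cells, endothelium, pigment epithelium and ciliary body, or lens. Its TMM factor, 0.915, was the lowest. For Scg5, KO 2 was the highest of the KO libraries at 121 CPM and below every WT library. The part of these marker levels in the values of the genes was not tested.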
